A study of Mus musculus with 11 samples.

Results

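The 10 genes described here write, read or erase repressive chromatin marks, and were followed across a mouse melanoma RNA-seq series: Setdb1, Atf7ip, Trim28, Morc3, Suv39h1, Ehmt2, Cbx5, Ezh2, Kdm1a and Dnmt3a. They were chosen by name, with no measured value in the rule, but earlier results of these data were known when they were chosen. All 10 were found among the 14528 genes of the deposited expression table. The study concerns uracil-DNA glycosylase (UNG), a base excision repair enzyme, and inflammatory signalling in tumour cells that lack it. All libraries came from cultured B16F10 cells, a mouse melanoma line, grown as a knockout clone ΔUNG, as a second knockout clone ΔUNG_2, or as a Cas9 control labelled wild type. Every line was given AZD6738 (ATRi), an inhibitor of the replication stress kinase ATR, at 5 µM for 48 h, or DMSO as vehicle for 48 h. Thus the groups were ΔUNG ATRi, ΔUNG DMSO, ΔUNG_2 ATRi, ΔUNG_2 DMSO, Cas9 control ATRi and Cas9 control DMSO, with 2 libraries each except ΔUNG_2 ATRi, which had 1. Each knockout line is 1 clone, so clone and genotype cannot be told apart within a line. Titles call the libraries biological replicates without saying how they were kept separate; the spread behind every p-value is that between libraries and may be partly technical.

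Retroelements and other repeats are held silent by layers of chromatin modification. Trim28 (KAP1) is brought to DNA by KRAB zinc finger proteins and recruits Setdb1, an H3K9 methyltransferase that Atf7ip stabilises and keeps in the nucleus, and Morc3 is an ATPase that also acts on endogenous retroviruses. Suv39h1 and Ehmt2 (G9a) are further H3K9 methyltransferases, Cbx5 (HP1α) binds the mark they leave, Ezh2 is the H3K27 methyltransferase of Polycomb repressive complex 2, Kdm1a (LSD1) removes methyl groups from H3K4, and Dnmt3a methylates DNA de novo. Loss of several of them is known to raise endogenous retroviral RNA and interferon signalling in tumour cells.

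Promoter sequences of 4 genes are shown. In 3 of them (Ezh2, Cbx5 and Suv39h1) every ATRi library lay below every DMSO library, whichever the line. The share of all tested genes separated in this way across the 3 lines was not counted. Dnmt3a was also lower under ATRi within every line, but held none of the motifs below in its 3 windows and is not shown. Morc3, which was not called in any comparison, carries one of the motifs that Ezh2 has. RefSeq (GRCm38.p6) gave 15 windows for the 10 genes, each from 250 bases before to 50 bases after a start site, counted from +1 at that site. Each line below runs 5′ to 3′ on the gene's strand from base -125, and capitals mark a CCAAT box, which reads ATTGG where it lies on the opposite strand, or the E2F core TTGGCGC.
Ezh2, chr6:47595019-47595155, minus strand, to base +12: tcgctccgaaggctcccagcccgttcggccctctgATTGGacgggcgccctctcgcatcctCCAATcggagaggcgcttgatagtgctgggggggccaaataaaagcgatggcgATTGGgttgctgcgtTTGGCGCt
Cbx5, chr15:103239853-103239977, minus strand: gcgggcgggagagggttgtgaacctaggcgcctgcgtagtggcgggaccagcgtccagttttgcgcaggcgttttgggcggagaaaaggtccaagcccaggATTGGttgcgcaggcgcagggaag
Suv39h1, chrX:8074761-8074885, minus strand: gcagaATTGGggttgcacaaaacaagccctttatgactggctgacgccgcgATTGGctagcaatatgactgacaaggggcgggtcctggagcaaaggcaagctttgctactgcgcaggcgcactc
Morc3, chr16:93831996-93832120, plus strand: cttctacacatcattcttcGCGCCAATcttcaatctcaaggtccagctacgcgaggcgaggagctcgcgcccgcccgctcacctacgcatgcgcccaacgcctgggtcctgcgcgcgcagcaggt
The Ezh2 stretch held 3 CCAAT boxes, at -90, -64 and -11, and the E2F core from +5 to +11. Cbx5 had 1 CCAAT box at -24 and Suv39h1 had 2, at -120 and -74. Setdb1 (at -249), Kdm1a (-135) and Atf7ip (-115), not shown, also had a CCAAT box and were not called under ATRi in any line. In Morc3 the E2F core lay from -106 to -100 on the opposite strand and overlapped a CCAAT box at -103. A second E2F core, TTCCCGC, was found in Trim28 alone, at -178 on the opposite strand, and the cell cycle motif TTTGAA in Atf7ip alone. Both strands were searched: a CCAAT box was in 7 of the 15 windows of these genes, beside 37.4% of the 32851 mouse windows of this length. TTGGCGC was in 2 of the 15, beside 2.45% of all windows, and either E2F core in 3 of the 15, beside 6.81%. TTTGAA was in 1 of the 15, beside 17.9% of all windows. Counted by gene, a CCAAT box was in windows of 7 of the 10, beside 41.1% of 27025 mouse genes. Either E2F core was in 3 of the 10, beside 7.79% of these genes, and TTTGAA in 1, beside 20.2%. None of these motifs was in the 3 windows of Dnmt3a, the 2 of Ehmt2, or the other window of Cbx5 and of Suv39h1. The start site used lies 311 bases inside the deposited gene for Ezh2 and 36 bases from the gene's 5′ end for Cbx5. For Suv39h1 and Morc3 it lies at the gene's 5′ end. A match describes letters in a window and is not evidence of binding.

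Libraries held 45692790 to 74973328 clean reads, and 17014697 to 28464757 fragments lay behind the FPKM values (fragments scaled to gene length and depth). All 7 melanocyte markers were present, with a summed level of 7220 to 9611 FPKM. Of the other cell types, 3 of 5 fibroblast, 2 of 4 endothelial and 2 of 4 epithelial markers were listed, and each of these lists summed to at most 1.27 FPKM in any library; Tek was at 0 in 4 libraries and Krt5 in 8. Of 6 leukocyte markers only Cd68 was listed, at 2.11 to 12.02 FPKM. It rose under ATRi by 2.02 on the log2 scale in ΔUNG, 1.47 in ΔUNG_2 and 1.36 in the control, and its part in the ATRi results was not tested. Ung, the targeted gene, had 1.27 and 0.675 FPKM in ΔUNG ATRi, 1.39 and 0.774 in ΔUNG DMSO, 1.74 in ΔUNG_2 ATRi, 2.01 and 1.78 in ΔUNG_2 DMSO, 2.56 and 2.999 in control ATRi and 2.86 and 2.48 in control DMSO. Under DMSO its RNA was lower in ΔUNG cells (log2 fold change over the control -1.03 ± 0.23 SE, adjusted p = 0.0246; adjusted p = 0.142 or 0.0855 when control DMSO replicate 1 or 2 was left out, and 0.126 when ΔUNG DMSO replicate 2 was; 0.0608 with no filter on low values and 0.0681 in a fit of only the groups compared). For ΔUNG_2 the value was -0.40 ± 0.23 SE, adjusted p = 0.355. RNA of a deleted gene need not fall, so this does not check the label of ΔUNG_2.

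Trim28 was the most abundant of the 10, at 91.5 to 126 FPKM, above 96.9% of the 11323 genes tested, followed by Cbx5 at 33.4 to 66.8 FPKM and Ehmt2 at 28.2 to 38.4 FPKM. Ezh2 spanned 13.4 to 27.5 FPKM and Kdm1a 15.9 to 19.8 FPKM. The other 5 lay near the median gene, whose mean level was 7.90 FPKM: Setdb1 at 7.505 to 9.12, Morc3 at 7.04 to 9.15, Suv39h1 at 5.08 to 9.75, Dnmt3a at 4.94 to 8.42 and Atf7ip at 5.45 to 6.67 FPKM. Highest and lowest library differed 2.05-fold for Ezh2, 2.00-fold for Cbx5, 1.92-fold for Suv39h1 and 1.71-fold for Dnmt3a. For the other 6 genes that ratio was 1.21 (Setdb1) to 1.38 (Trim28). The smallest number of fragments behind any of these values was 588, for Suv39h1. Genes on the opposite strand overlap Morc3 (Gm30881, mean 0.231 FPKM) and Dnmt3a (Dnmt3aos, 0.134 FPKM), and their reads could be told apart only by strand, whose use in counting is not stated.

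**Figure D1:**
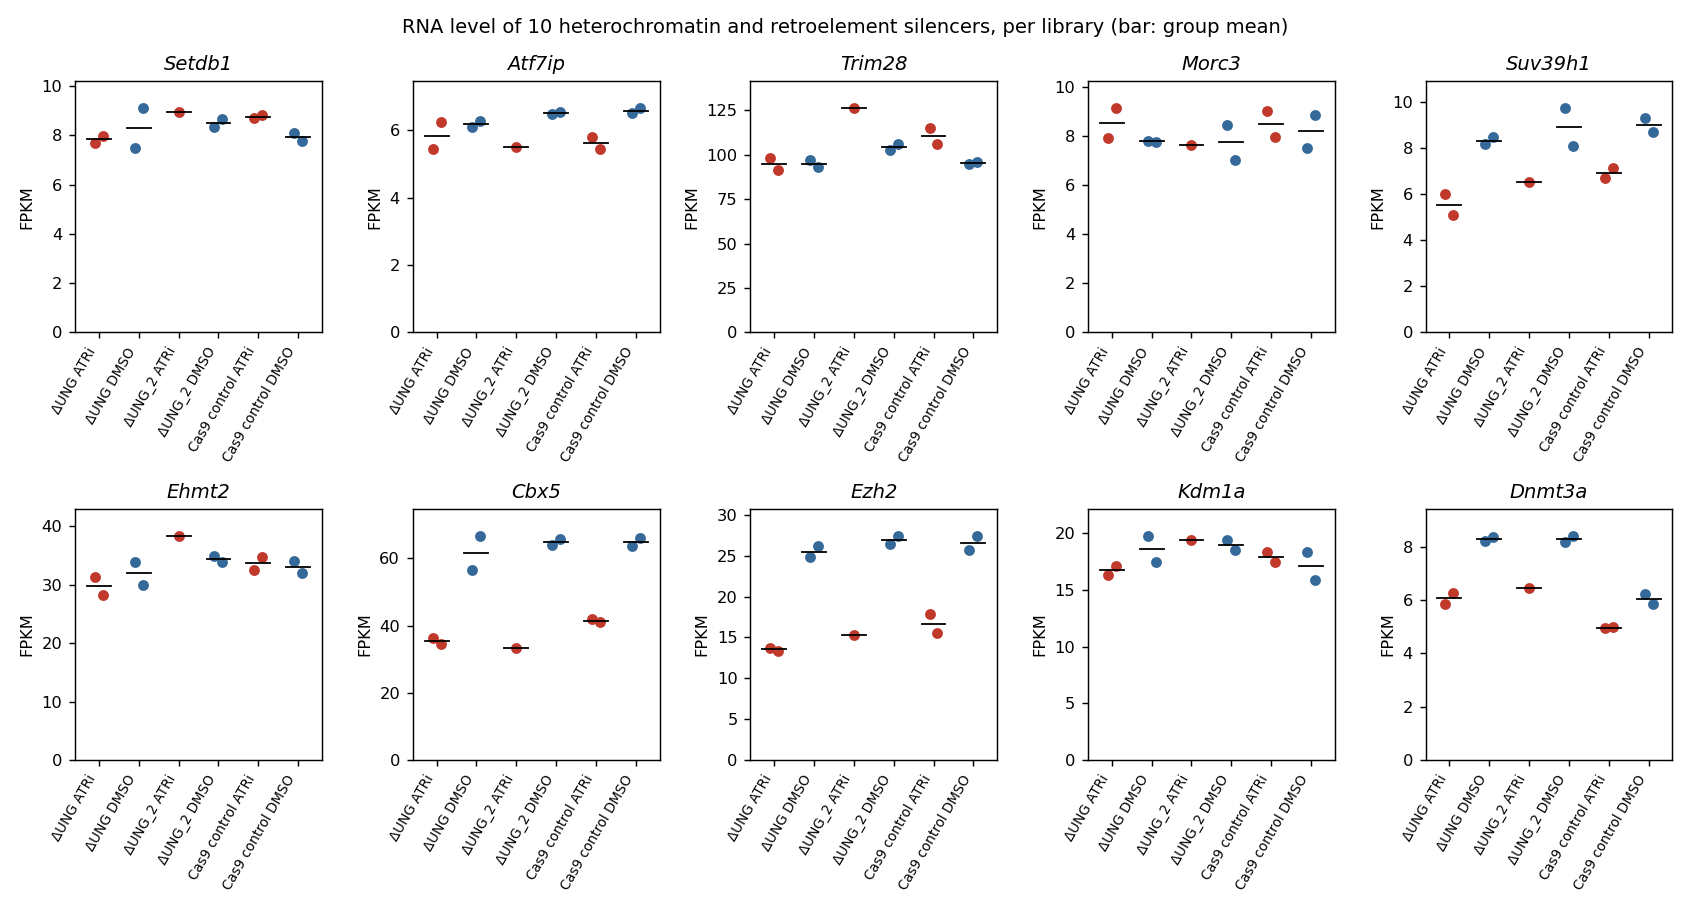
RNA level of the 10 genes in FPKM (y axis, from 0) in each of the 11 libraries, by line and treatment; red points are ATRi libraries, blue points DMSO libraries and bars group means. Every ATRi library lies below every DMSO library for Ezh2, Cbx5 and Suv39h1. For Dnmt3a this holds only within each line, and libraries of both clones lie above those of the control under the same treatment. The share of all genes separated like Ezh2, Cbx5 and Suv39h1 was not counted.

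The first comparison set ATRi against DMSO within each line, on log2(FPKM + 0.5), with limma over all tested genes and Benjamini-Hochberg adjustment; a gene is said to have risen or fallen when the adjusted p was under 0.05. Ezh2, Cbx5, Suv39h1 and Dnmt3a fell in all 3 lines, Trim28 rose in ΔUNG_2 and in the control, and Setdb1, Atf7ip, Morc3, Ehmt2 and Kdm1a passed in no line. The count of genes that fell was 4 of 10 in ΔUNG, where 19.4% of all tested genes fell, 4 of 10 in ΔUNG_2 against 17.3%, and 4 of 10 in the control against 16.8%. None of the 10 rose in ΔUNG, where 16.5% of all genes did, while 1 rose in ΔUNG_2 against 18.1% and 1 in the control against 16.8%. The median log2 fold change of the 10 was -0.12 in ΔUNG, -0.12 in ΔUNG_2 and -0.09 in the control, beside -0.020, -0.0046 and -0.0053 for all tested genes. ATRi and DMSO libraries did not overlap for 6, 9 and 7 of the 10 in the same order of lines, where the libraries of 67.1%, 88.9% and 68.2% of all tested genes did not overlap either; 35.8%, 35.4% and 33.6% of all genes were called in either direction.

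**Figure D2:**
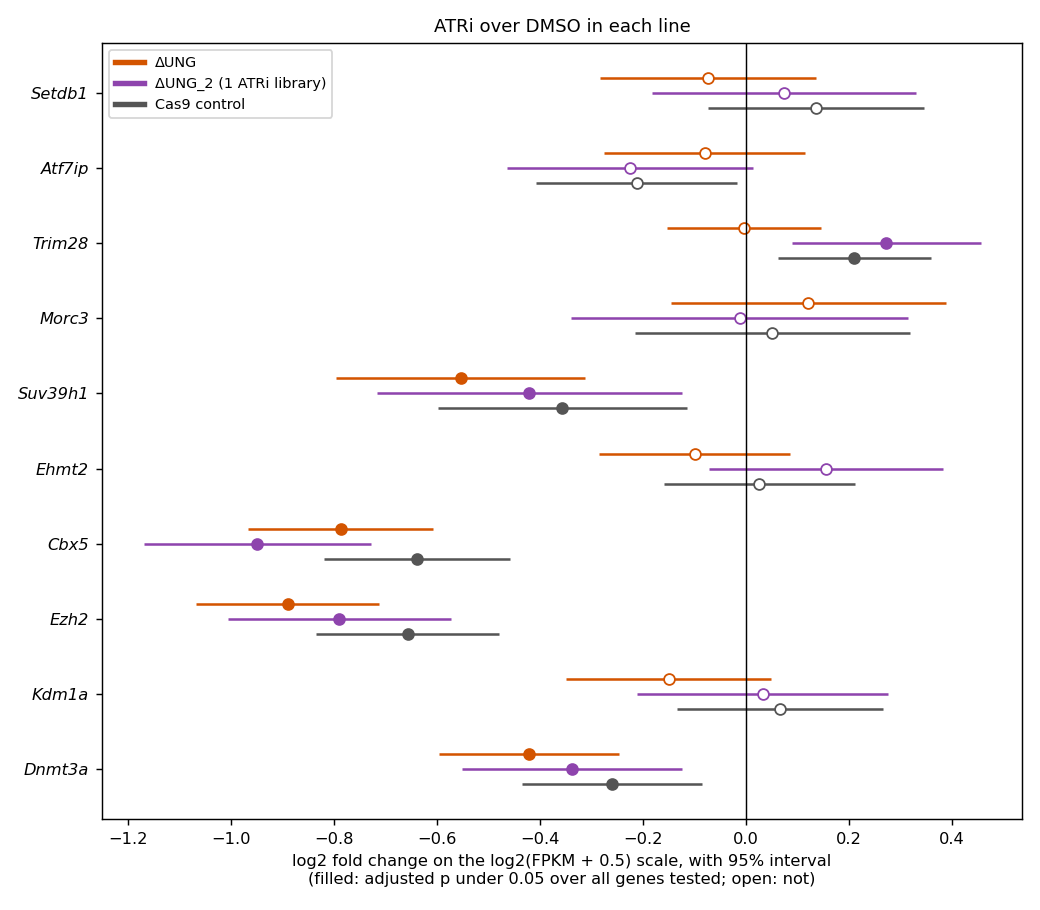
Log2 fold change of ATRi over DMSO on the log2(FPKM + 0.5) scale (x axis) for each of the 10 genes (y axis) in ΔUNG, ΔUNG_2 and the Cas9 control, with 95% intervals from limma; filled points have an adjusted p under 0.05 over all tested genes. Ezh2 and Cbx5 lie farthest below 0 in each line, at -0.95 to -0.64.

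Ezh2, the catalytic subunit of Polycomb repressive complex 2, lies on chromosome 6 from 47530139 to 47595341 in the deposited table. It had 13.7 and 13.4 FPKM in ΔUNG ATRi libraries, against 24.8 and 26.2 in ΔUNG DMSO. Values were 15.3 FPKM in ΔUNG_2 ATRi, against 26.4 and 27.4 in ΔUNG_2 DMSO. Control ATRi libraries had 17.8 and 15.6 FPKM, against 25.7 and 27.5 in control DMSO. No ATRi library reached any DMSO library of any line. The log2 fold change was -0.89 ± 0.08 SE, adjusted p = 3.96e-05 in ΔUNG, a 46.0% reduction on this scale (limma). It was -0.79 ± 0.10 SE, adjusted p = 0.000324 in ΔUNG_2, or 42.1%, and -0.66 ± 0.08 SE, adjusted p = 0.000292 in the control, or 36.6%. These calls held in every one of the 14, 12 and 14 alternative settings tried for the 3 lines, with values of -0.93 to -0.56. In these bulk libraries, fewer cells of a type and less RNA per cell cannot be told apart. A list of 18 replication and division genes moved with this result: its summed level was 476 and 536 FPKM in ΔUNG ATRi, against 1003 and 1098 in ΔUNG DMSO, 565 in ΔUNG_2 ATRi against 1054 and 1061 in ΔUNG_2 DMSO, and 608.1 and 608.3 in control ATRi against 971 and 1018 in control DMSO. Its part in the falls of Ezh2, Cbx5, Suv39h1 and Dnmt3a was not tested.

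Cbx5 encodes HP1α, which binds methylated H3K9 and compacts heterochromatin (chromosome 15 from 103191544 to 103239816). Its level was 36.2 and 34.6 FPKM in ΔUNG ATRi, against 56.4 and 66.8 in ΔUNG DMSO. The ΔUNG_2 ATRi library had 33.4 FPKM, against 64.0 and 65.7 in ΔUNG_2 DMSO. In the control it was 42.1 and 41.0 FPKM under ATRi, against 63.8 and 66.0 under DMSO. As for Ezh2, ATRi libraries of every line lay below all DMSO libraries. Cbx5 fell by 42.0% in ΔUNG (-0.79 ± 0.08 SE, adjusted p = 8.7e-05; limma), by 48.2% in ΔUNG_2 (-0.95 ± 0.10 SE, adjusted p = 0.000131) and by 35.7% in the control (-0.64 ± 0.08 SE, adjusted p = 0.000366). Those calls too held in every alternative, between -0.99 and -0.61.

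Suv39h1 methylates H3K9 at pericentric heterochromatin (chromosome X from 8061171 to 8074760). It had 5.99 and 5.08 FPKM in ΔUNG ATRi, against 8.20 and 8.48 in ΔUNG DMSO. ΔUNG_2 gave 6.52 FPKM under ATRi, against 9.75 and 8.11 under DMSO. Control libraries had 6.72 and 7.16 FPKM under ATRi, against 9.32 and 8.72 under DMSO. The highest ATRi library, 7.16 FPKM, stayed below the lowest DMSO library, 8.11 FPKM. The log2 fold change in ΔUNG was -0.55 ± 0.11 SE, adjusted p = 0.0036 (limma) and passed in every alternative, with an adjusted p of at most 0.0315. In ΔUNG_2 it was -0.42 ± 0.13 SE, adjusted p = 0.0334, and the call was lost without ΔUNG_2 DMSO replicate 1 (-0.29, adjusted p = 0.161). In the control it was -0.36 ± 0.11 SE, adjusted p = 0.0306, and the call needed all 4 libraries: adjusted p was 0.120 and 0.0611 without ATRi replicate 1 or 2, and 0.144 and 0.0773 without DMSO replicate 1 or 2. Equal FPKM sums in all libraries ended the call in ΔUNG_2 (-0.46, adjusted p = 0.102) and in the control (-0.42, 0.0653), and so did no filter on low values (0.0545 in ΔUNG_2 and 0.05004 in the control) and, in ΔUNG_2, a fit of only the groups compared (0.0903).

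Dnmt3a is the de novo DNA methyltransferase (chromosome 12 from 3806007 to 3914443). Its level was 5.84 and 6.28 FPKM in ΔUNG ATRi, against 8.20 and 8.36 in ΔUNG DMSO. It had 6.46 FPKM in ΔUNG_2 ATRi, against 8.17 and 8.42 in ΔUNG_2 DMSO. In control ATRi libraries it had 4.94 and 4.98 FPKM, against 6.22 and 5.86 in control DMSO. Within each line the ATRi libraries were the lower ones, but ΔUNG_2 ATRi and 1 of the ΔUNG ATRi libraries were above both control DMSO libraries. The log2 fold change was -0.42 ± 0.08 SE, adjusted p = 0.0027 in ΔUNG, -0.34 ± 0.10 SE, adjusted p = 0.0217 in ΔUNG_2 and -0.26 ± 0.08 SE, adjusted p = 0.0293 in the control (limma). In ΔUNG_2 the call was lost without DMSO replicate 1 (-0.36, adjusted p = 0.0629) or 2 (-0.32, 0.0929). In the control it was lost without any 1 of the 4 libraries, with adjusted p of 0.0872 and 0.0777 without ATRi replicate 1 or 2 and of 0.152 and 0.0718 without DMSO replicate 1 or 2. With all libraries brought to an equal FPKM sum, its adjusted p was 0.0509 in ΔUNG, 0.210 in ΔUNG_2 and 0.185 in the control; in the control it was 0.0833 in a fit of only the groups compared.

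Trim28, the corepressor that links zinc finger proteins to Setdb1, was higher under ATRi in 2 of the 3 lines. It lies on chromosome 7 from 12999114 to 13031035. The ΔUNG_2 ATRi library had 126 FPKM, against 103 and 106 in ΔUNG_2 DMSO. Control ATRi libraries had 115 and 106 FPKM, against 94.8 and 96.0 in control DMSO. In ΔUNG the groups overlapped, with 98.2 and 91.5 FPKM under ATRi and 97.0 and 93.0 under DMSO. Log2 fold changes were 0.27 ± 0.08 SE, adjusted p = 0.0272 in ΔUNG_2, 0.21 ± 0.07 SE, adjusted p = 0.0354 in the control and -0.0026 ± 0.07 SE, adjusted p = 0.981 in ΔUNG (limma; 95% interval in ΔUNG -0.15 to 0.15). The rise in ΔUNG_2 was lost without DMSO replicate 1 (adjusted p = 0.119) or 2 (0.0733). The rise in the control was lost without ATRi replicate 1 (0.16, adjusted p = 0.149) and without DMSO replicate 1 (0.143) or 2 (0.120). With equal FPKM sums the values were 0.23 in ΔUNG_2 and 0.14 in the control, with adjusted p of 0.365 and 0.511. With no intensity trend adjusted p was 0.0542 in ΔUNG_2 and 0.0666 in the control, and a fit of only the groups compared gave 0.0786 in the control. Zbtb45, on the opposite strand and overlapping Trim28, averaged 6.48 FPKM; whether reads were counted by strand is not stated.

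Setdb1 and its cofactor Atf7ip were not called in any line. Setdb1 had 7.70 and 7.98 FPKM in ΔUNG ATRi against 7.505 and 9.12 in ΔUNG DMSO, 8.96 in ΔUNG_2 ATRi against 8.33 and 8.65 in ΔUNG_2 DMSO, and 8.71 and 8.82 in control ATRi against 8.10 and 7.76 in control DMSO. Its 95% intervals of -0.28 to 0.14, -0.18 to 0.33 and -0.07 to 0.35 reach no farther than 0.35 from 0 on the log2 scale. Cers2 overlaps Setdb1 on the opposite strand at a mean of 49.0 FPKM, so unstranded counting could mix their reads. Atf7ip had log2 fold changes of -0.08 ± 0.09 SE, adjusted p = 0.507 in ΔUNG, -0.23 ± 0.11 SE, adjusted p = 0.129 in ΔUNG_2 and -0.21 ± 0.09 SE, adjusted p = 0.0888 in the control (limma). Its ATRi libraries lay below the DMSO libraries in ΔUNG_2 and in the control, at 5.49 against 6.47 and 6.54 FPKM and at 5.79 and 5.45 against 6.51 and 6.67 FPKM. On whole fragments, limma-voom called the control value (-0.23, adjusted p = 0.0258).

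Ehmt2, Morc3 and Kdm1a also stayed within intervals around 0. Ehmt2 (G9a) had log2 fold changes of -0.10, 0.16 and 0.03 in ΔUNG, ΔUNG_2 and the control, with 95% intervals of -0.28 to 0.09, -0.07 to 0.38 and -0.16 to 0.21. For Morc3 the values were 0.12, -0.01 and 0.05, with intervals of -0.15 to 0.39, -0.34 to 0.32 and -0.22 to 0.32. Kdm1a, the H3K4 demethylase of the CoREST complex, had -0.15, 0.03 and 0.07, with intervals of -0.35 to 0.05, -0.21 to 0.28 and -0.13 to 0.27. The limma adjusted p of these 9 values was 0.219 or more.

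Whether a line responded differently from the control was tested as the difference of both log2 fold changes. None of the 10 genes passed for ΔUNG or for ΔUNG_2 in limma, and 1 gene in each had an unadjusted p under 0.05, beside 1524 of the 11323 tested genes for ΔUNG and 1396 for ΔUNG_2; limma-voom also called none of the 10. Over all genes, 0.0177% were called for ΔUNG and 0.0707% for ΔUNG_2. For Trim28 the ATRi response of ΔUNG minus that of the control was -0.21 (95% interval -0.43 to -0.0027, adjusted p = 0.366), so its call in the control and not in ΔUNG is not shown to be a difference. Cbx5 gave -0.31 for ΔUNG_2 minus the control (-0.60 to -0.03, adjusted p = 0.368) and -0.15 for ΔUNG minus the control (-0.40 to 0.11). Ezh2 gave -0.23 (-0.48 to 0.02) and -0.13 (-0.41 to 0.15) for these clones. The Dnmt3a differences were -0.16 (-0.41 to 0.09) and -0.08 (-0.35 to 0.20).

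Members were set against their nearest relatives within each library, using FPKM, which is scaled by the deposited gene length. The lengths of the transcripts expressed here are not known, so the size of a share is uncertain. Ezh2 made up 67.5% and 64.4% of the summed Ezh2 and Ezh1 FPKM in ΔUNG ATRi, against 82.3% and 84.2% in ΔUNG DMSO. Its share was 69.4% in ΔUNG_2 ATRi, against 85.2% and 83.9% in ΔUNG_2 DMSO, and 70.6% and 69.4% in control ATRi, against 81.1% and 83.0% in control DMSO. Ezh1, the paralog of Ezh2, rose in ΔUNG (0.42 ± 0.10 SE, adjusted p = 0.0104) and ΔUNG_2 (0.42 ± 0.12 SE, adjusted p = 0.0237; limma) and had 0.28 ± 0.10 SE, adjusted p = 0.058 in the control. For Cbx5 the share of HP1 FPKM (Cbx5, Cbx1 and Cbx3) was 47.1% to 48.4% in ΔUNG ATRi against 53.8% to 55.3% in ΔUNG DMSO, 47.7% in ΔUNG_2 ATRi against 55.2% to 56.0% in ΔUNG_2 DMSO, and 49.5% to 50.2% in control ATRi against 58.0% to 58.2% in control DMSO.

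Setdb1 shares were higher under ATRi. Its paralog Setdb2 had -0.32 ± 0.14 SE, adjusted p = 0.0968 in ΔUNG, -0.83 ± 0.17 SE, adjusted p = 0.0049 in ΔUNG_2 and -0.70 ± 0.14 SE, adjusted p = 0.00415 in the control (limma). Setdb1 was 71.4% to 72.5% of the summed Setdb1 and Setdb2 FPKM in ΔUNG ATRi against 66.4% to 69.1% in ΔUNG DMSO. It was 77.5% in ΔUNG_2 ATRi against 62.0% to 63.8% in ΔUNG_2 DMSO, and 74.2% to 77.1% in control ATRi against 61.8% to 61.9% in control DMSO. Dnmt3a RNA fell, and its share of Dnmt3a, Dnmt3b and Dnmt1 FPKM was 16.5% and 17.8% in ΔUNG ATRi against 14.0% and 13.3% in ΔUNG DMSO. That share was 15.97% in ΔUNG_2 ATRi against 13.5% and 13.6% in ΔUNG_2 DMSO, and 11.6% and 12.3% in control ATRi against 10.5% and 10.1% in control DMSO. Shares of Suv39h1 within Suv39h1 and Suv39h2 and of Ehmt2 within Ehmt2 and Ehmt1 overlapped between treatments in ΔUNG and in the control. In ΔUNG_2 the ATRi library was the higher, at 74.6% against 71.8% and 69.0% for Suv39h1 and at 81.6% against 77.4% and 77.3% for Ehmt2.

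**Figure D3:**
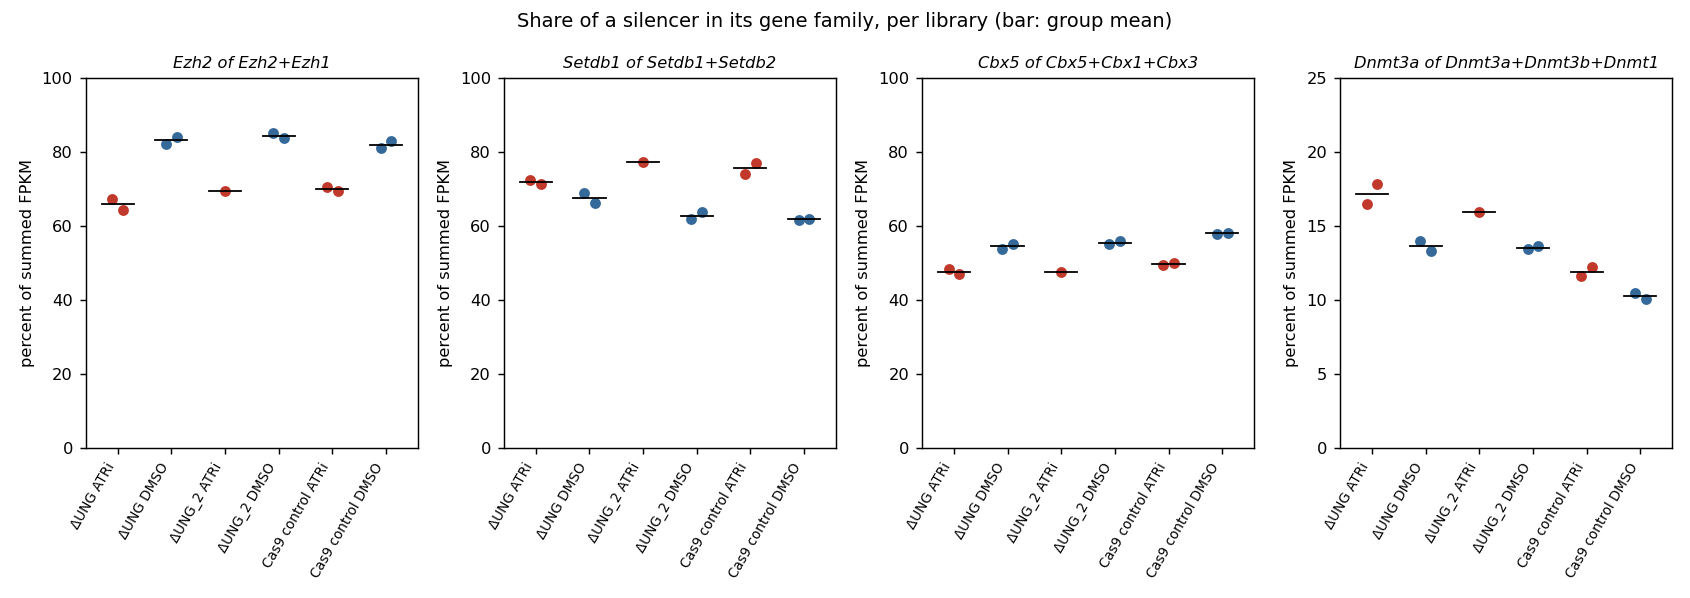
Share of Ezh2, Setdb1, Cbx5 and Dnmt3a in the summed FPKM of their gene family (y axis, percent; the Dnmt3a panel ends at 25%) per library, by line and treatment; red points are ATRi libraries, blue points DMSO libraries and bars group means. Within each line, ATRi and DMSO libraries do not overlap in any of the 4 panels; Ezh2 and Cbx5 shares are lower under ATRi, Setdb1 and Dnmt3a shares higher.

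The second comparison set each clone against the Cas9 control under the same treatment; both clones share the control libraries. Under DMSO, Dnmt3a was higher in both clones and no other member passed. This is 1 of 10 in each clone, where 5.47% of all tested genes were higher in ΔUNG and 4.47% in ΔUNG_2; none of the 10 was lower, beside 3.25% and 3.73% of all genes. As given above, Dnmt3a had 8.20 and 8.36 FPKM in DMSO libraries of ΔUNG and 8.17 and 8.42 in those of ΔUNG_2. Control DMSO had 6.22 and 5.86, with no overlap. The share of all tested genes without overlap was not counted here. The log2 fold change of Dnmt3a was 0.43 ± 0.08 SE, adjusted p = 0.011 for ΔUNG and 0.43 ± 0.08 SE, adjusted p = 0.0104 for ΔUNG_2 (limma). This is a level 34.3% and 34.5% higher on this scale. For ΔUNG, leaving out the second replicate of control DMSO gave 0.39 (adjusted p = 0.0823) and leaving out that of ΔUNG DMSO gave 0.41 (adjusted p = 0.0528), neither past the threshold. For ΔUNG_2 it was lost when control DMSO replicate 2 (0.39, 0.0859), ΔUNG_2 DMSO replicate 1 (0.45, 0.0658) or its replicate 2 (0.41, 0.0941) was left out.

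Giving every library an equal FPKM sum moved the median of all genes to -0.11 in ΔUNG and -0.13 in ΔUNG_2. The split of all calls was 619 higher and 368 lower in ΔUNG, and 137 higher and 186 lower after this rescaling. In ΔUNG_2 it was 506 higher and 422 lower, and 114 higher and 267 lower after it. On that scale Dnmt3a had 0.31 (adjusted p = 0.380) in ΔUNG and 0.30 (adjusted p = 0.388) in ΔUNG_2; in ΔUNG, a fit of only the groups compared gave an adjusted p of 0.0624. One gene, Gm23935, held 10.3% to 26.3% of the FPKM sum per library, and its part in this shift was not tested. Rescaling by median ratios left the Dnmt3a calls of both clones in place. The other 9 genes had DMSO log2 fold changes of -0.11 (Suv39h1) to 0.12 (Kdm1a) in ΔUNG and of -0.08 (Morc3) to 0.15 (Kdm1a) in ΔUNG_2. For Ezh2 the intervals were -0.24 to 0.12 and -0.16 to 0.19, and for Setdb1 -0.15 to 0.27 and -0.12 to 0.30.

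Under ATRi no member passed in either clone, beside 6.14% of all genes called in ΔUNG and 5.01% in ΔUNG_2; 5 and 3 of the 10 had an unadjusted p under 0.05, as did 2493 and 2440 of the 11323 tested genes. Limma-voom on whole fragments called 1248 of all genes in ΔUNG and 1129 in ΔUNG_2. Of the 10 it called 3 in ΔUNG: Dnmt3a (0.29, adjusted p = 0.0168), Ezh2 (-0.30, 0.0208) and Trim28 (-0.22, 0.0383). In ΔUNG_2 it called Dnmt3a (0.38, 0.0132) and Cbx5 (-0.32, 0.0367). In limma, Dnmt3a had 0.26 ± 0.08 SE, adjusted p = 0.0811 in ΔUNG and 0.35 ± 0.10 SE, adjusted p = 0.0703 in ΔUNG_2. Ezh2 had -0.29 ± 0.08 SE, adjusted p = 0.0626 in ΔUNG, which passed without control ATRi replicate 2 (-0.39, adjusted p = 0.0342), and -0.12 ± 0.10 SE, adjusted p = 0.52 in ΔUNG_2. Trim28 had opposite signs in the clones, with -0.22 ± 0.07 SE, adjusted p = 0.0866 in ΔUNG and 0.19 ± 0.08 SE, adjusted p = 0.206 in ΔUNG_2. Of the 18 replication and division genes, 8 were lower in ΔUNG ATRi than in control ATRi (median -0.33) and 2 in ΔUNG_2 ATRi (median -0.14); their part in these values was not tested. All calls split into 341 higher and 354 lower in ΔUNG, and 71 and 205 with equal FPKM sums; in ΔUNG_2 they split into 310 and 257, and 42 and 141 after it. Between the clones under DMSO (ΔUNG_2 over ΔUNG), none of the 10 passed or had an unadjusted p under 0.05, limma-voom called none, and 0.0442% of all genes passed; the largest member value was 0.14 for Trim28 (95% interval -0.01 to 0.29).

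**Figure D4:**
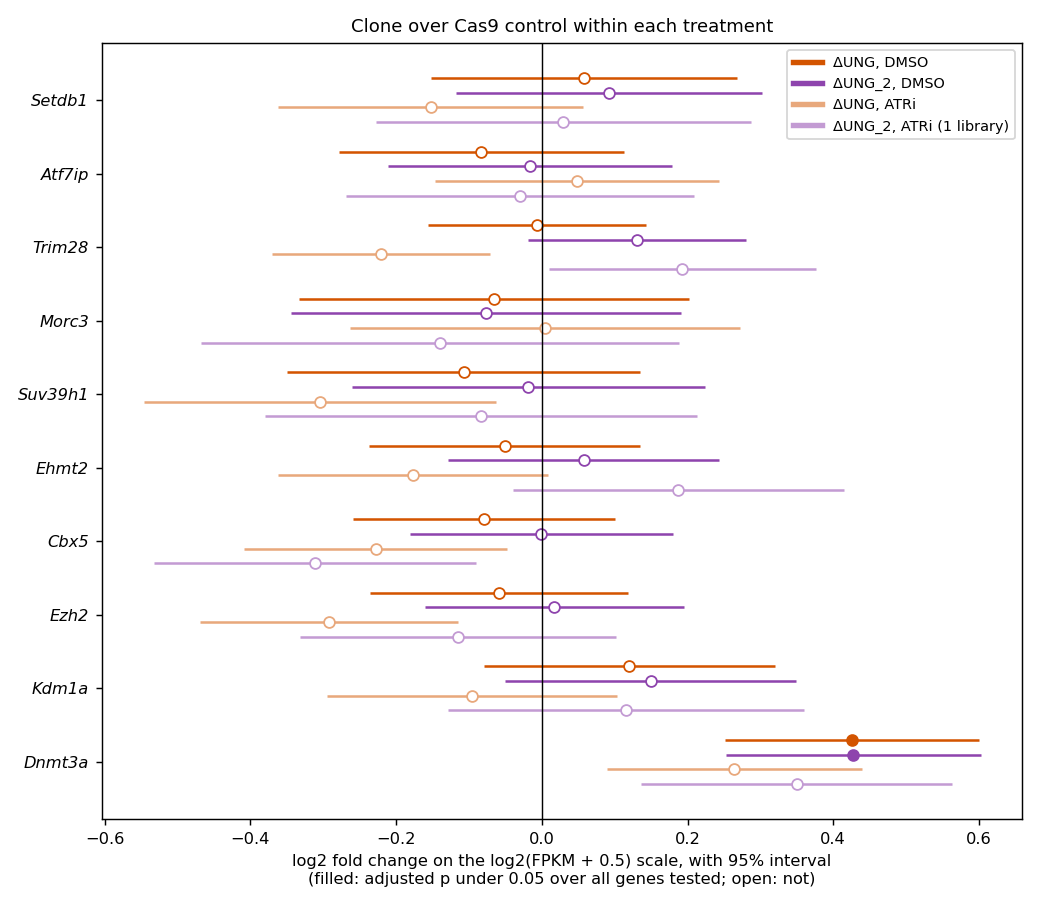
Log2 fold change of each clone over the Cas9 control on the log2(FPKM + 0.5) scale (x axis) for the 10 genes (y axis), under DMSO and under ATRi, with 95% intervals from limma; filled points have an adjusted p under 0.05 over all tested genes. Dnmt3a under DMSO is the filled pair, at 0.43 in both clones.

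The levels of the 6 groups fell into the following orders. For Ezh2 and Suv39h1 the group mean was highest in ΔUNG_2 DMSO (Ezh2) or control DMSO (Suv39h1), with the other of these next, followed by ΔUNG DMSO, control ATRi, ΔUNG_2 ATRi and ΔUNG ATRi; each DMSO group overlapped with the next DMSO group, ΔUNG DMSO was apart from control ATRi, and the 3 ATRi groups were each apart from the next. Cbx5 differed in that ΔUNG_2 ATRi came last, at 33.4 FPKM. Dnmt3a ran from ΔUNG_2 DMSO (8.29 FPKM) and ΔUNG DMSO (8.28), which overlapped, through ΔUNG_2 ATRi (6.46), ΔUNG ATRi (6.06) and control DMSO (6.04), the last 2 overlapping, to control ATRi (4.96). Trim28 was highest in ΔUNG_2 ATRi (126 FPKM), then control ATRi (111) and ΔUNG_2 DMSO (105), each apart from the next, and lowest in control DMSO (95.4), ΔUNG DMSO (94.997) and ΔUNG ATRi (94.9), which overlapped. Every neighbouring pair of groups overlapped for Morc3.

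Genes of the same pathways were read from lists of gene names, none of which holds the 10 genes themselves. The lists too were chosen with earlier results of these data known. For each list the count is of tested genes called by limma in ATRi over DMSO, and the background shares are those given above. PRC2 genes other than Ezh2, its paralog Ezh1 among them, split in direction. Of 11, 2 rose and 3 fell in ΔUNG, 2 rose and 4 fell in ΔUNG_2, and 2 rose and 4 fell in the control. Ezh1 was among the risen genes in ΔUNG and ΔUNG_2. Suz12, which PRC2 needs for activity, fell in every line (-0.65 ± 0.07 SE, adjusted p = 0.000124 in ΔUNG, -0.69 ± 0.09 SE, adjusted p = 0.000368 in ΔUNG_2 and -0.65 ± 0.07 SE, adjusted p = 0.000163 in the control). Phf1, a Polycomb-like accessory subunit, rose in every line (1.00 ± 0.13 SE, adjusted p = 0.000356, 0.91 ± 0.16 SE, adjusted p = 0.00225 and 0.83 ± 0.13 SE, adjusted p = 0.00124 in the same order), with 4.02 ± 0.00402 FPKM in control ATRi and 2.04 ± 0.164 in control DMSO (SD, n = 2 each). Its relative Phf19 fell, with -0.63 ± 0.15 SE, adjusted p = 0.0106 in the control. Of 14 PRC1 genes, 1 rose and 4 fell in ΔUNG, 1 rose and 2 fell in ΔUNG_2, and 1 rose and 3 fell in the control, where Phc2 had 0.39, Bmi1 -0.26 and Pcgf6 -0.24.

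Of 10 genes of DNA methylation and demethylation, 7 fell in ΔUNG, 7 in ΔUNG_2 and 6 in the control, with none risen and list medians of -0.42, -0.50 and -0.33. With equal FPKM sums 4, 4 and 3 fell. There were also 4 without ΔUNG ATRi replicate 1 in ΔUNG and 4 without ΔUNG_2 DMSO replicate 1 in ΔUNG_2. Hells, a helicase needed for DNA methylation of repeats, fell most, with -1.33 ± 0.08 SE, adjusted p = 8.71e-06 in ΔUNG, -1.57 ± 0.10 SE, adjusted p = 1.48e-05 in ΔUNG_2 and -1.05 ± 0.08 SE, adjusted p = 2.91e-05 in the control (limma). It had 9.87 ± 0.101 FPKM in control ATRi and 20.9 ± 0.45 in control DMSO (SD, n = 2 each). Dnmt1, the maintenance methyltransferase, had -0.84, -0.64 and -0.53 in the same order of lines. Uhrf1, which brings Dnmt1 to hemimethylated DNA, had -1.20, -0.81 and -0.50. All of these passed.

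A list of 10 histone chaperone genes and partners, some acting at newly made DNA, had 5 fallen and none risen in each line. In the control the fallen genes included Asf1b (-0.94), Chaf1b (-0.78), a subunit of chromatin assembly factor 1, and Nasp (-0.55). Of the 18 replication and division genes, 18 fell in ΔUNG, 17 in ΔUNG_2 and 17 in the control, with medians of -1.01, -0.82 and -0.76. Mki67 (-0.996), Top2a (-0.99) and Ccna2 (-0.99) had the largest falls of this list in the control.

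H3K9 methyltransferases and cofactors gave 0 higher and 2 lower of 6 in ΔUNG, 0 and 3 in ΔUNG_2, and 1 and 2 in the control. There Setdb2 (-0.70) and Suv39h2 (-0.44) fell and Prdm2 (0.31) rose. The HUSH complex, which silences young retroelements together with Setdb1, and the MORC family gave 1 higher and 2 lower of 7 in ΔUNG, 0 and 4 in ΔUNG_2, and 1 and 2 in the control. In the control Morc4 (-0.45) and Smchd1 (-0.45) fell and Resf1 (0.48), a partner of Setdb1 at retroelements, rose. HP1 and TIF1 relatives gave 0 higher in all lines and 3, 3 and 1 lower of 6; Lbr, a receptor that ties HP1 to the nuclear envelope, fell in all 3 (-0.56, -0.43 and -0.40).

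Partners of Kdm1a, listed with its paralog Kdm1b, gave 0 higher and 4 lower of 11 in ΔUNG, 1 and 3 in ΔUNG_2, and 1 and 3 in the control. With equal FPKM sums none rose and 1, 0 and 1 fell in the same order of lines, and the control count of 4 dropped to 2 without ATRi replicate 2 and to 2 or 1 without DMSO replicate 1 or 2. Rcor1, the CoREST scaffold, fell in all lines (-0.36, -0.44 and -0.53), and in the control Rcor3 (-0.50) fell and Hmg20b (0.31) rose. Demethylases of H3K9 and H3K27 gave 3 higher and 1 lower of 10 in ΔUNG, 1 and 2 in ΔUNG_2, and 0 and 2 in the control. The 2 were Kdm4a (-0.54) and Kdm4c (-0.41), both H3K9 demethylases; the Kdm4c call was lost with equal FPKM sums (adjusted p = 0.0596).

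Several of these calls in the control were lost when 1 library was left out. Without control ATRi replicate 1, the calls of Suv39h2, Prdm2, Resf1, Morc4, Phc2, Pcgf6 and Hmg20b were lost, with adjusted p of 0.0512 to 0.223. Without control ATRi replicate 2, those of Suv39h2, Morc4, Smchd1, Phf19, Bmi1, Pcgf6 and Rcor3 were lost (0.0508 to 0.145). Without control DMSO replicate 1, those of Prdm2, Resf1, Morc4, Bmi1, Pcgf6 and Rcor3 were lost (0.0673 to 0.184), and without replicate 2 those of Suv39h2, Prdm2, Smchd1, Phf19, Phc2, Bmi1, Pcgf6, Rcor3 and Hmg20b (0.0763 to 0.248). With equal FPKM sums every gene named in these sentences except Phf19 lost its call, as Kdm4c did. Suv39h2, Prdm2 and Resf1 were also lost with no filter on low values, Prdm2 and Bmi1 with no intensity trend, Pcgf6 in limma-voom, and Suv39h2, Prdm2, Resf1, Pcgf6 and Rcor3 in a fit of only the groups compared. Over all alternatives, in ΔUNG, ΔUNG_2 and the control, the calls numbered 2 to 7, 2 to 6 and 2 to 8 for PRC2, 2 to 6, 1 to 4 and 0 to 4 for PRC1, and 1 to 3, 2 to 4 and 1 to 4 for H3K9 methyltransferases. They numbered 1 to 4, 2 to 4 and 0 to 4 for HUSH and MORC genes, 3 to 4, 1 to 4 and 1 to 2 for HP1 and TIF1 relatives, and 1 to 4, 0 to 3 and 1 to 2 for demethylases. Calls of Setdb2, Lbr, Suz12, Phf1, Hells, Dnmt1, Uhrf1, Rcor1, Kdm4a, Asf1b, Chaf1b, Nasp, Mki67, Top2a and Ccna2 in the control held in every alternative.

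**Figure D5:**
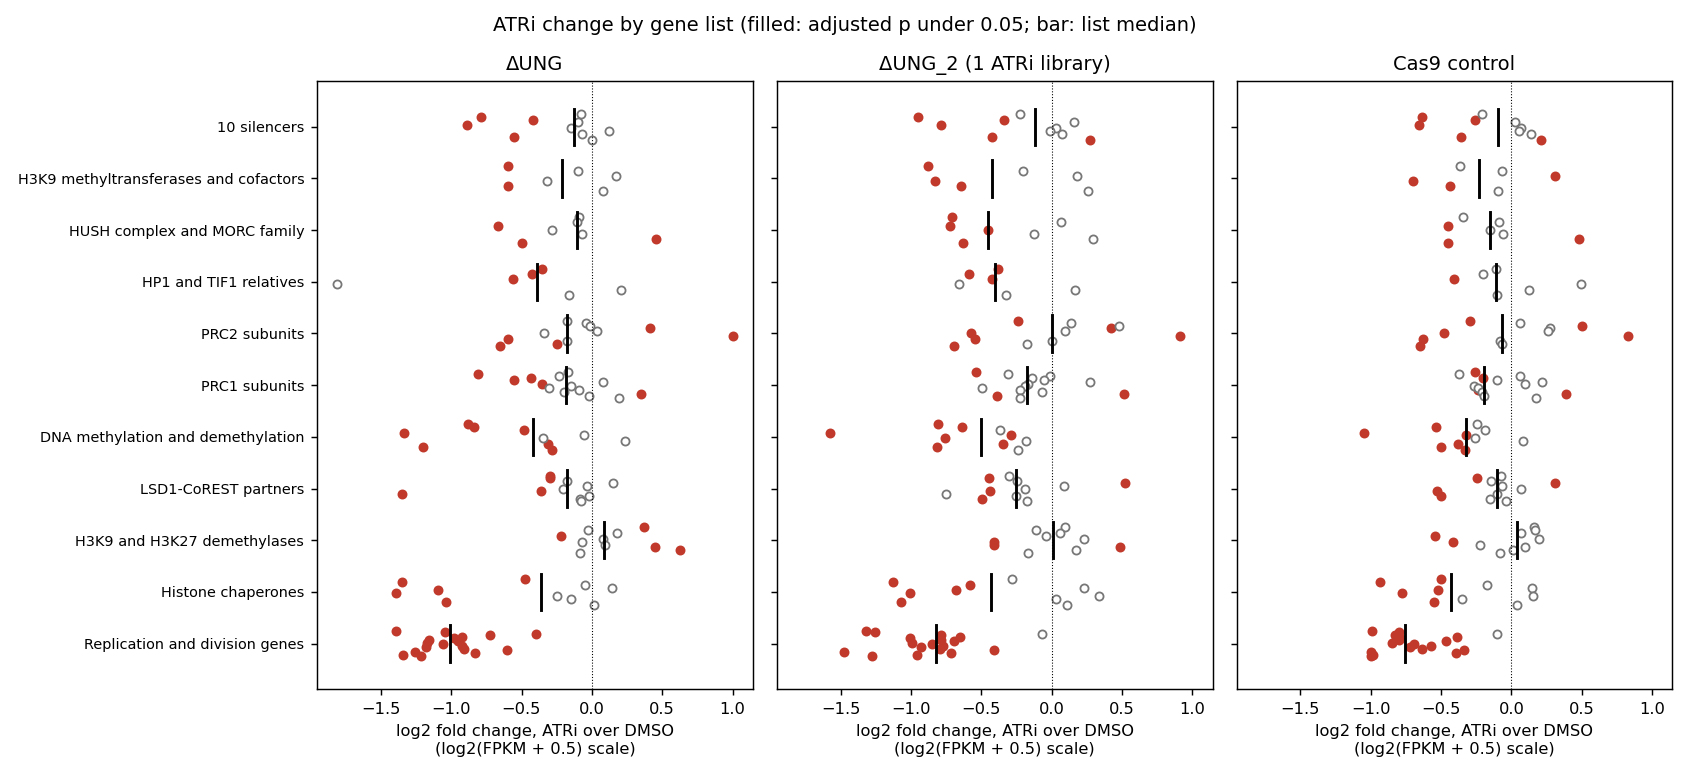
Log2 fold change of ATRi over DMSO (x axis, log2(FPKM + 0.5) scale) for the 10 genes and for each tested gene of 10 pathway lists (y axis) in ΔUNG, ΔUNG_2 and the Cas9 control; filled points have an adjusted p under 0.05 and bars are list medians. Replication and division genes lie farthest left, with medians of -1.01, -0.82 and -0.76.

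Under DMSO few genes of these lists differed between clone and control. Tet1, which oxidises methylated cytosine, was higher in ΔUNG (0.999 ± 0.16 SE, adjusted p = 0.00577; limma) and had 0.28 ± 0.16 SE, adjusted p = 0.353 in ΔUNG_2. Kdm4a was lower in both (-0.34 ± 0.07 SE, adjusted p = 0.018 in ΔUNG and -0.36 ± 0.07 SE, adjusted p = 0.0146 in ΔUNG_2). Asf1b (0.48) and Pcgf6 (0.34) were higher in ΔUNG, while Phf19 (-0.59) and Daxx (-0.39), an H3.3 chaperone that silences retroelements with Atrx, were lower in ΔUNG_2. Rrm2, a subunit of ribonucleotide reductase, was higher in both (0.43 and 0.36). Without control DMSO replicate 1 or replicate 2 each of these calls was lost, except that Tet1 was lost without replicate 1 only (0.89, adjusted p = 0.0523); adjusted p was 0.0523 to 0.228 without replicate 1 and 0.0530 to 0.217 without replicate 2. Without ΔUNG DMSO replicate 1, Asf1b and Pcgf6 were lost, and without replicate 2 also Kdm4a and Rrm2 (0.0794 to 0.150). With ΔUNG_2 DMSO replicate 1 or 2 left out, all 4 calls in that clone were lost (0.0512 to 0.285). With equal FPKM sums every one of these calls was lost except that of Tet1. No filter on low values ended those of Asf1b in ΔUNG and of Phf19, Daxx and Rrm2 in ΔUNG_2, and no intensity trend those of Asf1b in ΔUNG and of Daxx and Rrm2 in ΔUNG_2. A fit of only the groups compared ended those of Kdm4a, Pcgf6 and Rrm2 in ΔUNG and of Daxx in ΔUNG_2; Pcgf6 was also lost in limma-voom and Asf1b with a pseudocount of 0.1.

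The gene whose pattern lay nearest to each member was found over the 11 libraries as the smallest root mean square difference in centred log2(FPKM + 0.5) among 9447 genes. For Ezh2 these were Mcm4 (0.04), a subunit of the replicative helicase, Dtl (0.05), a substrate receptor of a ubiquitin ligase that acts on replication licensing, and Mcm6 (0.06), another helicase subunit; both Mcm genes are also in the replication list. Nearest to Cbx5 was Gabpb2 (0.05), a subunit of an ETS family transcription factor, and nearest to Suv39h1 was Mars (0.08), methionyl-tRNA synthetase. Dnmt3a lay nearest to Rfwd3 (0.07), a ubiquitin ligase of DNA repair. The others were Rbm19 for Trim28, Ncbp2 for Setdb1, Ddhd2 for Atf7ip, Eif5a for Ehmt2, Zfp281 for Morc3 and Tfap4 for Kdm1a, at 0.03 to 0.05. With a pseudocount of 1, Cbx5 lay nearest to Polq and Dnmt3a to Mgat5. Among the 10 genes themselves the closest pair was Ezh2 and Cbx5, at 0.08; all these distances share the same libraries and are descriptions.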

How the data were processed

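RNA was extracted with Direct-zol columns, and Novogene made and sequenced the libraries, per the labels' protocols. The submitters' processing notes name HISAT2; build, annotation and counting tool: not given in the sources used here. The deposited FPKM table lists 14528 genes, and 13994 of them have the coordinates of GENCODE M21. Clean read counts and the percent of bases above Q30 (92.44% to 93.98%) come from the authors' deposited read table, in which 1 line matches no library used here. FPKM times gene length gave whole fragments for 100% of values within 0.01. On that basis 3 fragments in a gene of 1 kb are 0.105 to 0.176 FPKM, counting error only.

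Tests used limma 3.58.1 (R 4.3.3) on log2(FPKM + 0.5). The 11323 genes whose mean FPKM reached 0.5 were tested, all 10 silencers among them, with 1 mean per group, an intensity trend, 5 residual degrees of freedom, two-sided p-values and Benjamini-Hochberg adjustment over all tested genes in a comparison. The lone ΔUNG_2 ATRi library is assumed to vary like the other groups. Fold changes on this scale understate those of low genes. Scripts were first tested on simulated data. Replicates of each group differed by more than sampling noise. Alternatives were other pseudocounts (0.1 and 1), filters (none, or a mean of 2 FPKM), 2 rescalings, no trend, fewer groups, a replicate block, limma-voom on whole fragments, and each library left out. From each list, up to 3 called genes with the largest change were named for ATRi in the control and up to 2 for each clone under DMSO; a few of these are also given in the other lines. The genes and lists were chosen with earlier results of these data known. Promoter windows came from RefSeq, and figures were drawn with matplotlib 3.10.9.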

Additional observations from a re-analysis of the deposited data

How the results depend on the processing

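The falls of Ezh2 and Cbx5 under ATRi passed in all 3 lines in every alternative. Over the 10 silencers, all comparisons and all alternatives, 1374 values kept their side of the threshold and 39 called values lost their call. A call was gained by 7, and 0 called values reversed in sign. Most of the 1374 were not called in the main fit. Only called values could be counted as lost or reversed. Uncalled values could change sign, as Morc3 did under ATRi in the control (-0.06 to 0.16). With equal FPKM sums, the number of the 10 called under ATRi was 2 in ΔUNG_2 and 2 in the control, and clone over control under DMSO gave 0 in ΔUNG and 0 in ΔUNG_2. A fit of only the groups compared gave 3 in the control under ATRi and 0 in ΔUNG under DMSO. Limma-voom called 3 in ΔUNG and 2 in ΔUNG_2 for clone over control under ATRi. Leaving out each library in turn gave 4 to 4 in ΔUNG, 2 to 3 in ΔUNG_2 and 2 to 3 in the control under ATRi, 0 to 1 for each clone under DMSO, and 0 to 1 for ΔUNG under ATRi. Under ATRi over DMSO, and in each clone over control under DMSO, fewer of all tested genes also passed whenever 1 library was left out. The cause of these changes was not tested. No pairing by replicate number was detected. The differences between replicates 1 and 2 of a group had correlations of -0.12 to 0.04 with those of another group, over 10 pairs of groups. The replicate block left the counts of the 10 as they were except for Trim28 under ATRi in ΔUNG_2 (0.25, adjusted p = 0.0554); of the other named genes it ended the calls of Prdm2 under ATRi in the control and of Phf19 and Rrm2 in ΔUNG_2 under DMSO. Over all genes, equal FPKM sums gave 2319, 2022 and 2002 calls under ATRi in ΔUNG, ΔUNG_2 and the control, beside 4059, 4005 and 3805. The other rescaling, by median ratios, gave 4098, 4043 and 3849, and it changed no call of the 10 in any comparison. Each value of the 10 rests on 588 to 13597 fragments.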

Other observations

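A list of 11 interferon-stimulated genes had 9 called higher under ATRi in ΔUNG, 8 in ΔUNG_2 and 11 in the control. The shares of all tested genes called higher were 16.5%, 18.1% and 16.8%. Under DMSO, 11 of the list were called lower in each clone than in the control. Of all tested genes 3.25% were lower in ΔUNG and 3.73% in ΔUNG_2. Of the 10 silencers 1 was called in each clone under DMSO. Of 19 germline genes that these silencers are known to repress, 3 are in the expression table and the others were not analysed here. Ddx4 had 0.150 to 0.557 FPKM over the 11 libraries, Sycp1 was listed at 0 in 9 of them and Taf7l in 10, so none reached the level needed for a test.

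Sumo2, which encodes the modifier attached to Trim28, was singled out after its values were seen. It had 7.33 and 10.3 FPKM in ΔUNG ATRi, against 37.2 and 27.2 in ΔUNG DMSO, 6.62 in ΔUNG_2 ATRi, against 6.43 and 17.7 in ΔUNG_2 DMSO, and 5.02 and 65.2 in control ATRi, against 13.7 and 12.3 in control DMSO. Its libraries spread widely within groups, and no ATRi comparison was called by limma (-1.81 ± 0.90 SE in ΔUNG, -0.66 ± 1.10 SE in ΔUNG_2 and 0.50 ± 0.90 SE in the control). Sumo2 has near-identical copies in the genome, so its values are uncertain.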
